A study of Mus musculus with 56 samples.

Results

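T helper 17 (TH17) cells that lacked deoxyhypusine hydroxylase (DOHH) by their labels were compared with WT TH17 cells across all expressed genes. The comparison used 6 of the 56 samples in the series, 3 RNA-seq libraries labelled Dohh-/- and 3 labelled WT, chosen by their labels alone, and 13897 of the 47937 genes listed had enough counts to be tested. The mice were C57BL/6. The animals behind the Dohh-/- label carried Dohh alleles with loxP sites and a Cre transgene driven by the Cd4 promoter, which is active in developing T cells before the CD4 and CD8 lineages part and so also deletes in CD8 T cells, and the WT animals lacked Cre. CD4+ T cells of spleen and lymph node, left after other cells had been removed with antibodies, were cultured for 4 days with anti-CD3 at 5 µg/mL, anti-CD28 at 2 µg/mL, IL-2 at 100 U/mL, IL-6 at 5 ng/mL, TGF-beta at 5 ng/mL, IL-1beta, and anti-IFN-gamma and anti-IL-4 at 10 µg/mL each. The sample labels call the cells CD4+ T cells, and the study's methods state that cultures began from naive ones. Both genotypes received the same culture. TH1, TH2 and Treg cells of the same genotypes, with 3 libraries for each, served to test whether an effect differed in TH17 cells. With the same anti-CD3, anti-CD28 and IL-2, TH1 cultures received IL-12 and anti-IL-4 at 4 µg/mL, TH2 cultures IL-4 and anti-IFN-gamma at 4 µg/mL, and Treg cultures TGF-beta at 10 ng/mL and both antibodies at 4 µg/mL, each with further IL-2.

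DOHH is the second enzyme of hypusine synthesis. Deoxyhypusine synthase (DHPS) transfers part of the polyamine spermidine to a single lysine of the translation factor eIF5A, and DOHH hydroxylates that residue to hypusine, the form in which eIF5A helps ribosomes to elongate and to end translation. TH17 cells are CD4 T cells named for the cytokine IL-17, which calls in neutrophils and strengthens epithelial barriers. IL-6 acting through STAT3, together with TGF-beta and the factors BATF, IRF4 and MAF, drives the cytokines IL-17A and IL-17F, while T-bet (Tbx21), GATA3 (Gata3) and FOXP3 (Foxp3) mark TH1, TH2 and regulatory T cells.

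Libraries held between 6572148 and 11768921 counts. Levels are given as CPM, the usual unit of counts scaled to library size, here also corrected for library composition, and 3 counts correspond to 0.241 to 0.453 CPM in the 6 libraries. Levels are compared within a gene and not between genes. Gene differences, and the amounts by which genes rose or fell, are log2 fold changes of the libraries labelled Dohh-/- over WT ± SE, fitted by edgeR, and a gene was called when it passed both a 2-fold change and a Benjamini-Hochberg adjusted p below 0.05. The labels do not say whether the libraries came from separate mice or cultures, so p-values measure the spread between these samples. The WT libraries resembled each other (Pearson r 0.988 to 0.99 over log2 CPM), whereas r was 0.96 between the libraries labelled Dohh-/- 1 and 2, 0.945 between 2 and 3, and 0.915 between 1 and 3. The library labelled Dohh-/- 1 was also the closest of these to WT (r 0.897 to 0.906), and Dohh-/- 3 the farthest (0.781 to 0.79). The targeted gene, Dohh (chr10:81384428-81388352, GRCm38, plus strand), held 65.5, 45.2 and 50.2 CPM in the libraries labelled Dohh-/- and 45.8, 35.02 and 40.4 CPM in WT, and the groups overlapped (log2 fold change 0.41 ± 0.26, adjusted p = 0.189). These counts cover every exon of the gene and do not separate the deleted exons, so the transcript level did not check the deletion.

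Markers of other cells differed between the genotypes and among the libraries labelled Dohh-/-. The selection before culture is designed to remove cells other than CD4+ T cells, including the CD8, NK, gamma-delta T, B, myeloid and erythroid cells whose markers are given here and with the gene groups. Summed over 12 myeloid markers, the level was 607, 9051 and 11980 CPM in the libraries labelled Dohh-/- and 45.9, 41.8 and 41.9 CPM in WT. Basophil and mast cell markers summed to 423, 1004 and 1566 CPM against 171, 166 and 165 CPM, and erythroid and platelet markers to 89.4, 131 and 677 CPM against 7.18, 8.49 and 9.93 CPM. In these 3 lists every library labelled Dohh-/- lay above every WT library, with Dohh-/- 1 the lowest of its group. All 11 myeloid markers tested rose, 12 of 13 basophil and mast cell markers rose, and all 7 erythroid and platelet markers rose, against 17.3% of all genes tested that rose and 14.1% that fell. With Dohh-/- 1 as the only library of its group, 3 of the 11, 11 of the 13 and 5 of the 7 were called higher. A lone library has no spread of its own, so here and in all such counts the spread came from the other groups of the fit, and the lone library was assumed to vary as they did. Of the defining markers, Itgam was listed at 0 in all 6 libraries, and Lyz2, the lysozyme of macrophages and neutrophils, held 66.96, 4211 and 1205 CPM in the libraries labelled Dohh-/- and 16.4, 15.3 and 18.4 CPM in WT. B cell markers summed to 422, 458 and 392 CPM against 264, 260.4 and 273 CPM in WT, and 2 of the 8 tested rose and 1 fell (25% and 12.5%, near the shares of all genes). The sums were higher than in WT although the median log2 fold change of the 8 was -0.65. With 1 library left out, that median ran from -0.956 (without Dohh-/- 2) to -0.028 (without WT 1). Without Dohh-/- 2, 3 of the 8 fell, and without Dohh-/- 3, 2 fell. In bulk RNA a larger share of other cells and more RNA per cell cannot be told apart. The part of these cells in the results that follow was not tested, and counts with Dohh-/- 1 as the only library of its group, also written as Dohh-/- 1 alone, are given beside the lists that follow.

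**Figure D1:**
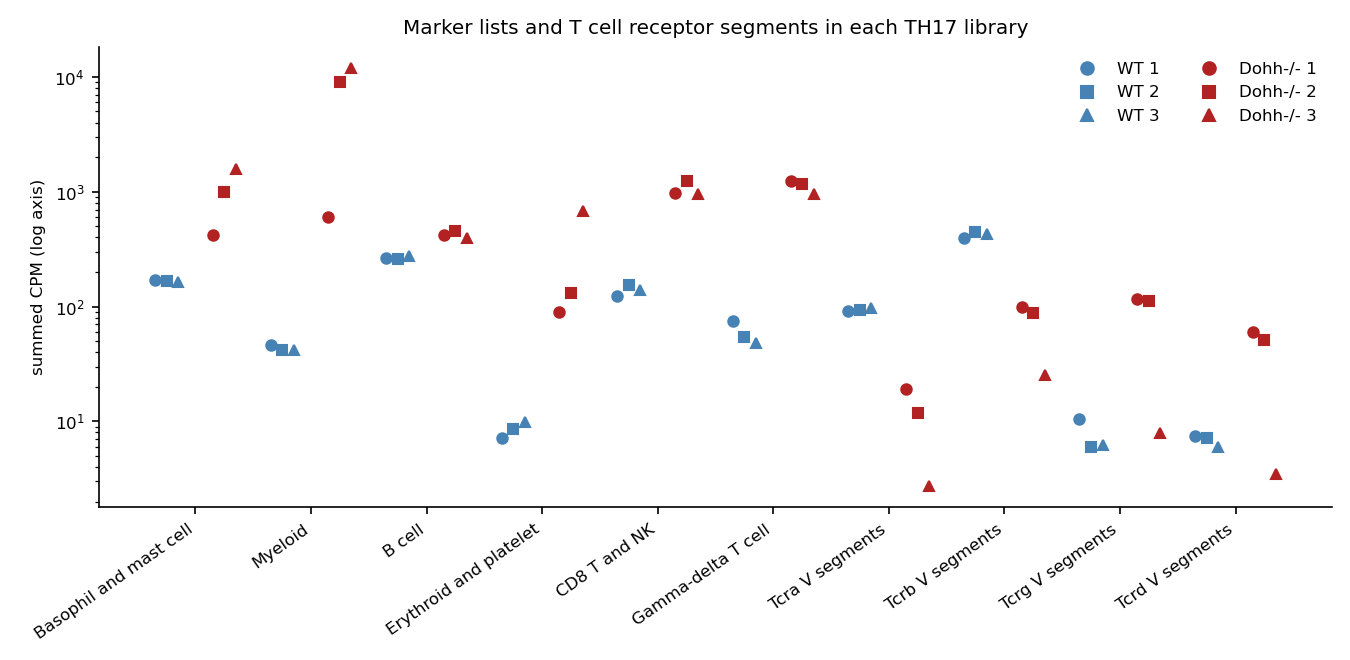
Summed CPM (log axis) of 6 marker lists and of the variable segments of the 4 T cell receptor loci in each TH17 library; blue symbols are WT and red symbols are libraries labelled Dohh-/-, with the shape giving the library number. Myeloid markers ran from 607 to 11980 CPM in the libraries labelled Dohh-/- and from 41.8 to 45.9 CPM in WT, and Tcrb segments lay lower in all 3 libraries labelled Dohh-/-.

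Many cytotoxic, TH1 and interferon response genes and markers of myeloid and gamma-delta T cells were higher in the libraries labelled Dohh-/-. Cd4, many genes of the Treg program and of naive T cells, and some glycolysis genes were lower. Of the 13897 genes tested, 2411 rose (17.3%) and 1955 fell (14.1%), and without the fold threshold 27.0% were higher and 24.9% lower at an adjusted p below 0.05. The 17.3% and 14.1% are the shares to set beside the counts of each list that follows. The median log2 fold change over all genes was 0.01. Among called genes, 2189 of those that rose and 1938 of those that fell had no overlap between the 3 libraries of each genotype. Called or not, 29.9% of all genes tested lay higher in every library labelled Dohh-/- than in any WT library and 32.1% lower, so that absence of overlap was common. With Dohh-/- 1 as the only library of its group, whose spread was then taken from the other groups, 1508 rose and 1345 fell.

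Among genes that were called, did not overlap and averaged at least 10 CPM over the libraries of the higher genotype, the largest rises by fitted log2 fold change were mostly genes of neutrophils and mast cells. Camp, which encodes the antimicrobial peptide cathelicidin of neutrophil granules, held 13.1, 184 and 660 CPM in the libraries labelled Dohh-/- and 0, 0 and 0.116 CPM in WT, at least 973-fold higher against the floor of 3 counts per library (adjusted p = 0.000604). S100a8, a subunit of calprotectin, held 180.4, 1866 and 4314 CPM in the libraries labelled Dohh-/- and 2.18, 1.95 and 1.27 CPM in WT and rose by 10.17 ± 2.38 (adjusted p = 0.00251). The remaining genes among the 15 largest rises were the neutrophil genes Ltf, Mpo, Elane, Cebpe, Stfa1 and Itgb2l, the mast cell tryptase Tpsb2, the granzyme Gzmd, the chemokine Ccl1, the Notch target Hes1, Sh2d1b1, Apol7c and the immunoglobulin gene Ighg3. In 13 of these 15 the library labelled Dohh-/- 3 was the highest, and in 12 Dohh-/- 1 was the lowest of its group, while WT libraries were at or near 0. Ly6g, a surface marker of neutrophils that is in none of the lists, went the other way, with 1.32, 6.35 and 7.403 CPM in the libraries labelled Dohh-/- and 35.4, 53.8 and 22.8 CPM in WT, and fell by 2.91 ± 0.62 (adjusted p = 0.000811). The call of Ighg3, whose fold is only bounded because it was at the floor in WT, was lost without the library labelled Dohh-/- 2 (adjusted p = 0.0987), without library WT 1 (adjusted p = 0.0668), without library WT 2 (adjusted p = 0.0615) and without library WT 3 (adjusted p = 0.0585).

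Most of the 15 largest falls were of genes at or near 0 in the libraries labelled Dohh-/-. Dntt, the terminal transferase that adds bases to receptor genes in early lymphocytes, held 0.304, 0.884 and 0.302 CPM in the libraries labelled Dohh-/- and 94.8, 116 and 121 CPM in WT and fell by 7.64 ± 0.84 (adjusted p = 8.74e-07). Gipr, the receptor for an incretin hormone, held 0.7102, 0.482 and 0 CPM in the libraries labelled Dohh-/- and 123, 107 and 139 CPM in WT and fell by 8.08 ± 0.96 (adjusted p = 2.72e-06). Acvrl1, which was still well above the floor in the libraries labelled Dohh-/- and encodes the TGF-beta family receptor ALK1, held 7.41, 6.59 and 7.25 CPM in the libraries labelled Dohh-/- and 196, 185 and 247 CPM in WT and fell by 4.88 ± 0.31 (adjusted p = 4.19e-10). In all 3 genes the groups were far apart, and the spread among the libraries labelled Dohh-/- was small beside the difference. The other 12 of the 15 were Gm10800, 2610528A11Rik, Serpinb5, Myh7b, Gpr83, Gpld1, Gm16350, Iyd, the chemokine receptor Cxcr1, Gm15494, the receptor phosphatase Ptprf and Gfpt2, an enzyme of hexosamine synthesis, and all 12 kept their call when any 1 library was left out.

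**Figure D2:**
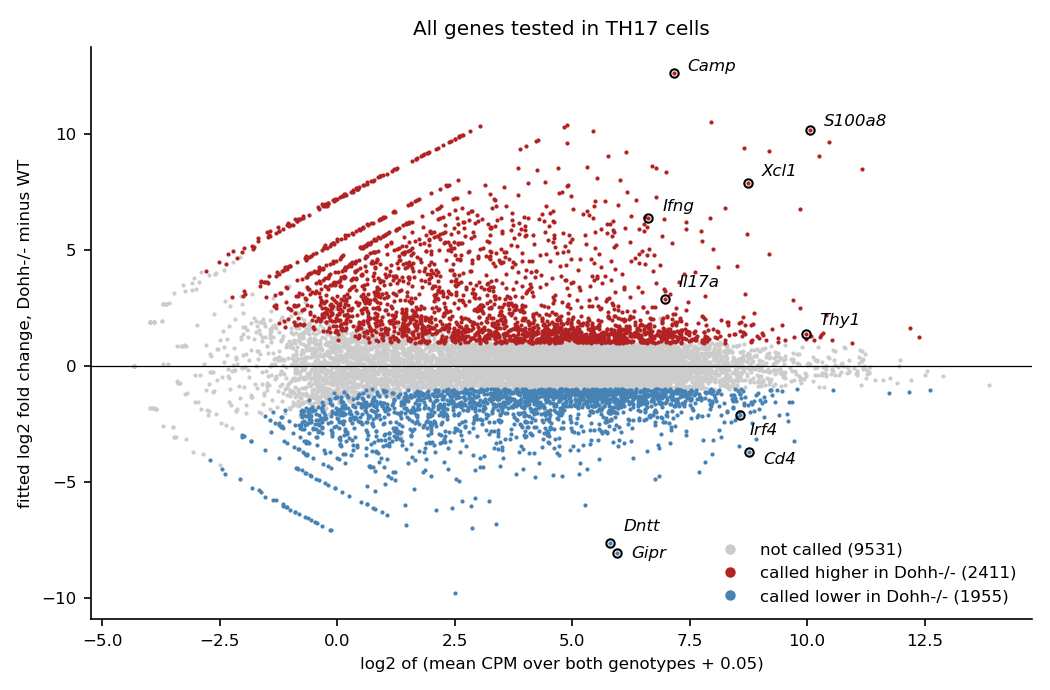
Fitted log2 fold change (vertical axis) against the log2 of the mean CPM of both genotypes plus 0.05 (horizontal axis) for the 13897 genes tested in TH17 cells, with genes called higher in red and called lower in blue. Straight rows of points at the left and along the upper edge are genes with no count, or few counts, in 1 genotype, whose fitted values are no bound, and 10 genes named in the text are circled.

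In the TH17 program, 5 of 12 transcription factors and 4 of 10 receptor and surface genes fell, while the transcripts of IL-17A and IL-22 rose. Of the 31 members tested, 4 rose and 11 fell (12.9% and 35.5%, against 17.3% and 14.1% of all genes), with a median log2 fold change of -0.66. With Dohh-/- 1 as the only library of its group, 4 rose and 8 fell. Maf, a factor of TH17 cells, held 48.1, 46.8 and 21.3 CPM in the libraries labelled Dohh-/- and 317, 316 and 276 CPM in WT and fell by 2.96 ± 0.35 on the log2 scale (adjusted p = 1.36e-06). Irf4, an early factor of TH17 differentiation, held 185, 155 and 89.6 CPM in the libraries labelled Dohh-/- and 624, 640.3 and 579.6 CPM in WT and fell by 2.099 ± 0.22 (adjusted p = 2.23e-07). In both genes every library labelled Dohh-/- lay below every WT library. Of the other lineage factors named here, the aryl hydrocarbon receptor gene Ahr fell by 1.78 ± 0.42 and Hif1a, the hypoxia factor, by 1.52 ± 0.299 (adjusted p = 0.00144 and 0.000289), and none rose. Without Dohh-/- 1, 8 of the 12 factors fell.

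Stat3, which carries the IL-6 signal, did not pass the fold threshold at -0.78 ± 0.21 (adjusted p = 0.00363), and the nuclear receptor gene Rora was at -0.96 ± 0.31 (adjusted p = 0.0132). Stat3 passed both thresholds when 1 library was left out, at -1.06 without the library labelled Dohh-/- 1 (adjusted p = 0.000378). Rora passed both thresholds when 1 library was left out, at -1.102 without the library labelled Dohh-/- 1 (adjusted p = 0.0142) and -1.05 without the library labelled Dohh-/- 2 (adjusted p = 0.023). Bhlhe40 passed both thresholds when 1 library was left out, at -1.202 without the library labelled Dohh-/- 1 (adjusted p = 0.0163). Batf, an AP-1 factor, held 139, 107 and 93.8 CPM in the libraries labelled Dohh-/- and 86.9, 81.1 and 83.4 CPM in WT, with the groups apart but a difference of only 0.44 ± 0.18 (adjusted p = 0.0484). Bhlhe40 was at -0.83 ± 0.36, Nfkbiz at -0.66 ± 0.33, Runx1 at -0.44 ± 0.36 and Ikzf3 at -0.14 ± 0.18, none of which was called.

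Of the 9 TH17 cytokine and chemokine genes, 3 rose and 2 fell. Il17a (chr1:20730905-20734496, GRCm38, plus strand) held 360, 165 and 139.8 CPM in the libraries labelled Dohh-/- and 37.9, 29.4 and 21.4 CPM in WT and rose by 2.905 ± 0.51 (adjusted p = 0.000121). All 3 libraries labelled Dohh-/- were above WT, and Dohh-/- 1 was the highest. Dohh-/- 1 had the lowest myeloid marker sum of its group and the highest gamma-delta T cell marker sum (1230, 1170 and 959 CPM). The part of other cells was not tested for Il17a. Its neighbour Il17f (chr1:20777146-20790617, GRCm38, minus strand) held 328, 210.3 and 178 CPM in the libraries labelled Dohh-/- and 218, 261 and 189.9 CPM in WT, the groups overlapped and the difference was 0.099 ± 0.397 (adjusted p = 0.85). Il22, a cytokine that acts on epithelia, held 8.42, 4.58 and 5.14 CPM in the libraries labelled Dohh-/- and 0, 0 and 0.462 CPM in WT, so that the WT libraries were at or near 0 and all 3 libraries labelled Dohh-/- were above them (5.402 ± 0.89, adjusted p = 5.44e-05). Il22 stood at 8.92 without library WT 3 (adjusted p = 7.81e-05). Il10, which encodes an anti-inflammatory cytokine, rose by 1.07 ± 0.31 (adjusted p = 0.00658) with overlapping groups. The call of Il10 was lost when 1 library was left out, at 0.81 without the library labelled Dohh-/- 1 (adjusted p = 0.045), 0.98 without the library labelled Dohh-/- 2 (adjusted p = 0.0233) and 0.92 without library WT 1 (adjusted p = 0.0395). Il21, which sustains TH17 differentiation, held 17.9, 9.96 and 1.51 CPM in the libraries labelled Dohh-/- and 53.2, 57.3 and 50.01 CPM in WT and fell by 2.41 ± 0.48 (adjusted p = 0.000379). Ccl20, the ligand of CCR6, fell by 1.39 ± 0.46 (adjusted p = 0.0191). The call of Ccl20 was lost when 1 library was left out, at -1.14 without the library labelled Dohh-/- 2 (adjusted p = 0.079) and -1.27 without library WT 2 (adjusted p = 0.0637). Csf2, Il9 and Il24 were low in both genotypes and were not called, at 0.704 ± 0.58, 0.91 ± 0.82 and -0.87 ± 0.895.

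Because Il17a and Il17f lie side by side on chromosome 1 and differed in their change, the 250 bases before the RefSeq start site of each are shown (GRCm38.p6). The Il17a window is chr1:20730655-20730904 on the plus strand and the Il17f window is chr1:20784271-20784520 on the minus strand, both written from 5′ to 3′ in the direction of transcription. Capitals mark matches on either strand to 3 short motifs, TGANTCA for AP-1, AGGTCA for a ROR response element half-site and TGTGGT for RUNX.
Il17a: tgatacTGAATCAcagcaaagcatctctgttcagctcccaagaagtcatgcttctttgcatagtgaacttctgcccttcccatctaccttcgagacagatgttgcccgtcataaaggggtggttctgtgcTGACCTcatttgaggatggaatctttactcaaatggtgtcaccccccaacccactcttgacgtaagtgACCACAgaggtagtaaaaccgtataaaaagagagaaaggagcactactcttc
Il17f: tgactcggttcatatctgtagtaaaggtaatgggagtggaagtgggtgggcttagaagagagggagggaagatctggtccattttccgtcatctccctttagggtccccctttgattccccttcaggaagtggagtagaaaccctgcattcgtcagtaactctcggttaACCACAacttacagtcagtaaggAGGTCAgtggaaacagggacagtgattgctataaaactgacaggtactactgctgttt
The Il17a window held 1 AP-1 match, starting 244 bases before the start site, 1 half-site at 120 and 1 RUNX match at 52. The Il17f window held 1 RUNX match at 81 and 1 half-site at 58 and no AP-1 match. Of 32851 RefSeq windows of this length, 6.75% held the AP-1 letters, 14.0% the half-site and 14.0% the RUNX letters. A match describes the letters and is not a binding site.

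Receptors of the TH17 program that fell were Il6ra, Il6st, Il12rb1 and Ccr6. Ccr6, the chemokine receptor that guides TH17 cells to mucosa, held 7.71, 3.78 and 1.36 CPM in the libraries labelled Dohh-/- and 30.03, 17.95 and 28.6 CPM in WT and fell by 2.54 ± 0.44 (adjusted p = 8.55e-05). Il12rb1, shared by the IL-12 and IL-23 receptors, held 70.5, 45.3 and 24.9 CPM in the libraries labelled Dohh-/- and 134, 109.8 and 112 CPM in WT and fell by 1.33 ± 0.23 (adjusted p = 9.29e-05). Both genes were lowest in Dohh-/- 3. Il23r and Il1r1, the receptors of IL-23 and IL-1, were low in both genotypes and overlapped (-0.32 ± 0.41, adjusted p = 0.522, and 0.18 ± 0.39, adjusted p = 0.726). Tmem176a, Tmem176b and Dpp4 were not called, at 0.55 ± 0.28, 0.56 ± 0.302 and -0.503 ± 0.34. Itgae, the integrin chain CD103 of T cells in epithelia, was the 1 gene of this group that rose, with 331, 353 and 243 CPM in the libraries labelled Dohh-/- and 54.7, 38.3 and 45.2 CPM in WT (2.74 ± 0.32, adjusted p = 9.52e-07).

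**Figure D3:**
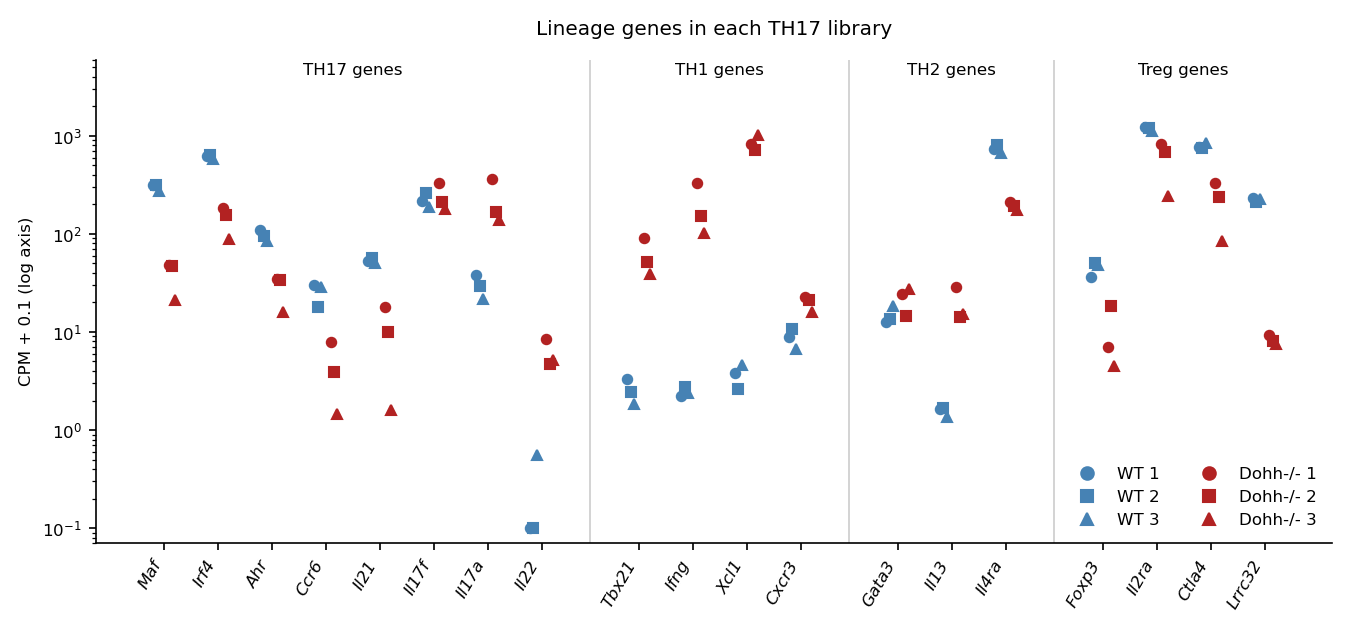
CPM plus 0.1 (log axis) of genes of the TH17, TH1, TH2 and Treg programs in each of the 6 TH17 libraries; blue symbols are WT, red symbols are libraries labelled Dohh-/-, and the shape gives the library number, which is not known to pair the genotypes. Maf, Irf4, Ahr, Ccr6 and Il21 lay lower in all 3 libraries labelled Dohh-/-, Il17f overlapped, and Il17a, Tbx21, Ifng and Xcl1 lay higher.

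Among signalling genes of the cytokines in the culture, more fell than rose. Of 35 tested, 2 rose and 13 fell (5.71% and 37.1%), with a median of -0.73, and 0 of the 9 genes of the IL-6 and STAT3 branch and 0 of the 8 of the IL-2 and STAT5 branch rose while 5 of each fell. In the TGF-beta branch 0 of 11 rose and 2 fell, and in the IL-1 branch 2 of 7 rose and 1 fell, with a median of 0.26 for the IL-1 branch. Over all branches, 1 of the 35 rose and 10 fell with Dohh-/- 1 alone. Il6ra, the IL-6 receptor, held 8.12, 17.04 and 13.6 CPM in the libraries labelled Dohh-/- and 95.2, 84.3 and 94.2 CPM in WT and fell by 2.82 ± 0.34 (adjusted p = 1.72e-06). Il2ra, the high-affinity chain of the IL-2 receptor (CD25), held 823, 684 and 243 CPM in the libraries labelled Dohh-/- and 1227, 1193 and 1114 CPM in WT and fell by 1.01 ± 0.29 (adjusted p = 0.00592), with Dohh-/- 3 far below the other libraries. The call of Il2ra was lost when 1 library was left out, at -0.63 without the library labelled Dohh-/- 3 (adjusted p = 0.0212) and -0.98 without library WT 1 (adjusted p = 0.019). Members chosen after their values were seen were the feedback inhibitor Socs3, which fell by 2.32 ± 0.27 (adjusted p = 9.65e-07), the kinase Jak3, by 2.08 ± 0.31 (adjusted p = 1.42e-05), the transducer Stat5b, by 1.75 ± 0.21 (adjusted p = 1.27e-06), and the TGF-beta transducer Smad3, by 2.63 ± 0.36 (adjusted p = 7.63e-06). All 4 lay lower in each library labelled Dohh-/- than in any WT library. Tgfbr1 was not called at 0.20 ± 0.32. Il1rn, the IL-1 receptor antagonist, held 16.2, 93.1 and 182 CPM in the libraries labelled Dohh-/- and 11.95, 14.8 and 10.7 CPM in WT and rose by 2.95 ± 0.92 (adjusted p = 0.0128), and with Dohh-/- 1 as the only library of its group it stood at 0.41. The call of Il1rn was lost when 1 library was left out, at 2.15 without the library labelled Dohh-/- 3 (adjusted p = 0.0704). Il2rg and Myd88 were listed at 0 in all 6 libraries and were not tested.

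TH1 genes were mostly higher. Of 24 tested, 15 rose and 3 fell (62.5% and 12.5%), the median was 1.58, and 15 rose and 1 fell with Dohh-/- 1 as the only library of its group. Tbx21, which encodes T-bet, held 90.5, 51.99 and 39.1 CPM in the libraries labelled Dohh-/- and 3.23, 2.34 and 1.73 CPM in WT and rose by 4.61 ± 0.39 (adjusted p = 1.6e-08). Ifng held 328, 152 and 103 CPM in the libraries labelled Dohh-/- and 2.099, 2.63 and 2.31 CPM in WT and rose by 6.36 ± 0.56 (adjusted p = 3.51e-08). Both genes were highest in Dohh-/- 1, and WT lay below every library labelled Dohh-/-. Xcl1, a chemokine of activated CD8 T and NK cells, held 817, 721 and 1015 CPM in the libraries labelled Dohh-/- and 3.71, 2.54 and 4.504 CPM in WT and rose by 7.89 ± 0.73 (adjusted p = 1.05e-07). The chemokine genes Ccl3, Ccl4 and Ccl5 rose by 5.803 ± 0.43, 5.04 ± 0.34 and 3.02 ± 0.36 (adjusted p = 2.78e-09, 6.66e-10 and 1.27e-06). Cxcr6, a homing receptor, rose by 3.25 ± 0.52 (adjusted p = 5.33e-05), Il18rap, a chain of the IL-18 receptor, by 2.79 ± 0.45 (adjusted p = 5.51e-05) and Cxcr3, a receptor of TH1 cells, by 1.19 ± 0.28 (adjusted p = 0.00136). The 3 that fell were Stat4, which carries the IL-12 signal, by 1.78 ± 0.54 (adjusted p = 0.00991), Ifngr2, by 1.51 ± 0.26 (adjusted p = 6.66e-05), and Il2, by 1.46 ± 0.56 (adjusted p = 0.0341). Il2 was low, at 1.42, 0.723 and 0.453 CPM in the libraries labelled Dohh-/- and 1.78, 2.93 and 2.66 CPM in WT. The call of Il2 was lost when 1 library was left out, at -1.29 without the library labelled Dohh-/- 2 (adjusted p = 0.107), -1.18 without the library labelled Dohh-/- 3 (adjusted p = 0.112), -1.31 without library WT 2 (adjusted p = 0.0964) and -1.396 without library WT 3 (adjusted p = 0.0752).

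The TH2 list was mixed, with 4 of 15 higher and 4 lower (26.7% each) and a median of -0.10, which was 0.102 without Dohh-/- 3 and 0.44 without WT 2, and 3 rose and 3 fell with Dohh-/- 1 alone. Gata3, the lineage factor, held 24.4, 14.6 and 27.2 CPM in the libraries labelled Dohh-/- and 12.6, 13.6 and 18.4 CPM in WT and overlapped (0.57 ± 0.22, adjusted p = 0.0393). Il13 rose by 3.71 ± 0.38 (adjusted p = 2.03e-07), from 1.53, 1.56 and 1.27 CPM in WT to 28.7, 13.98 and 15.1 CPM. Il4 was at or under 1.46 CPM in every library, at -0.10 ± 0.55 (adjusted p = 0.891). Il1rl1, the IL-33 receptor that mast cells and basophils also carry, rose by 7.32 ± 0.76 (adjusted p = 4.21e-07) and was highest in Dohh-/- 3, the library with the most basophil and mast cell counts (31.04, 56.2 and 101 CPM against 0.646, 0.293 and 0.116 CPM in WT). Il4ra, the IL-4 receptor, held 210.1, 194 and 176 CPM in the libraries labelled Dohh-/- and 737, 813 and 668 CPM in WT and fell by 1.93 ± 0.15 (adjusted p = 6.21e-09), as did the chemokine receptor Ccr4 (-1.805 ± 0.43, adjusted p = 0.0017).

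Genes of the Treg program were mostly lower. More genes of a Treg signature taken from other WT libraries rose than fell (37 and 17 of 95, described with the signatures). The median of that signature was 0.88, but 0.00 with Dohh-/- 1 as the only library of its group. Its genes were chosen as lower in WT TH17 than in WT Treg cells, which leaves more room to rise, so the 2 lists are not compared. Of 24 in the program tested, 4 rose and 13 fell (16.7% and 54.2%), the median was -1.12, and with Dohh-/- 1 as the only library of its group 4 rose and 10 fell. Without Dohh-/- 1, or without WT 1, 2 rose. Foxp3 held 7, 18.2 and 4.38 CPM in the libraries labelled Dohh-/- and 36, 50.05 and 47.8 CPM in WT and fell by 2.14 ± 0.48 (adjusted p = 0.00106). Lrrc32, which presents latent TGF-beta at the cell surface, held 9.23, 8.04 and 7.403 CPM in the libraries labelled Dohh-/- and 230.4, 213 and 227 CPM in WT and fell by 4.76 ± 0.31 (adjusted p = 4.75e-10), with little spread in either genotype. Gpr83, an orphan receptor of Treg cells, held 0.203, 0.321 and 0 CPM in the libraries labelled Dohh-/- and 12.7, 16.2 and 13.3 CPM in WT and fell by 6.02 ± 0.54 (adjusted p = 2.87e-08). Ctla4, a coinhibitory receptor, fell by 1.84 ± 0.36, Izumo1r (folate receptor 4) by 3.54 ± 0.37, the costimulatory receptor Tnfrsf4 (OX40) by 2.76 ± 0.39 and Nt5e (CD73), which makes adenosine, by 1.995 ± 0.37 (adjusted p = 0.000273, 2.33e-07, 1.08e-05 and 0.000197). Bach2, a factor that holds back effector genes, fell by 2.19 ± 0.25 (adjusted p = 5.97e-07). Ikzf2 (Helios) went the other way and rose by 3.58 ± 0.42 (adjusted p = 1.18e-06), with 54.5, 58.9 and 61.5 CPM in the libraries labelled Dohh-/- and 5.65, 4.098 and 4.85 CPM in WT, and Klrg1 was called higher from levels of at most 1.42 CPM. The call of Klrg1, whose fold is only bounded because it was at the floor in WT, was lost without the library labelled Dohh-/- 1 (adjusted p = 0.0551), without library WT 1 (adjusted p = 0.0691) and without library WT 3 (adjusted p = 0.0533). Tgfb1 was not called at 0.25 ± 0.18.

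Cytotoxic genes were mostly higher. Of 19 tested, 13 rose and 0 fell (68.4% against 17.3% of all genes), 13 rose with Dohh-/- 1 as the only library of its group, and the median was 4.15, or 3.46 with the 5 genes at the floor in WT set to their bounds. Gzmb, the granzyme that cuts caspases in target cells, held 1303, 925 and 252 CPM in the libraries labelled Dohh-/- and 18.4, 19.1 and 10.9 CPM in WT and rose by 5.67 ± 0.48 (adjusted p = 1.58e-08). Gzma held 385, 302 and 134 CPM in the libraries labelled Dohh-/- and 6.38, 7.42 and 6.81 CPM in WT and rose by 5.32 ± 0.42 (adjusted p = 6.2e-09). Gzmc held 779, 394 and 631 CPM in the libraries labelled Dohh-/- and 7.35, 5.56 and 2.89 CPM in WT and rose by 6.81 ± 0.46 (adjusted p = 7.08e-10). In each of these 3 genes even the lowest library labelled Dohh-/- stood far above the highest WT library. Gzmd, Gzme and Gzmf were at or near 0 in WT and were at least 42.8-fold, 23.4-fold and 21.4-fold higher. These granzymes are close relatives of Gzmb and Gzmc that lie next to them, so the counting could have split reads among them. Gzmm rose by 1.73 ± 0.62 (adjusted p = 0.0237) at low levels, and Gzmg and Gzmk were not called. The call of Gzmm was lost when 1 library was left out, at 1.66 without the library labelled Dohh-/- 2 (adjusted p = 0.0547), 1.47 without the library labelled Dohh-/- 3 (adjusted p = 0.0779), 1.71 without library WT 2 (adjusted p = 0.0613) and 1.496 without library WT 3 (adjusted p = 0.0845). Gzmk passed both thresholds when 1 library was left out, at 2.05 without the library labelled Dohh-/- 3 (adjusted p = 0.0167). Prf1, the pore-forming perforin, held 136, 78.4 and 16.2 CPM in the libraries labelled Dohh-/- and 8.15, 5.85 and 6.81 CPM in WT and rose by 3.46 ± 0.54 (adjusted p = 3.38e-05). Nkg7, a protein of cytotoxic granules, rose by 5.05 ± 0.32, Crtam, a receptor of cytotoxic lymphocytes, by 5.20 ± 0.37, the death ligand Fasl by 3.23 ± 0.44 and its relative Tnfsf10 (TRAIL) by 3.71 ± 0.33 (adjusted p = 4.42e-10, 1.56e-09, 5.91e-06 and 2.5e-08). CD8 T, NK and gamma-delta T cells also express many of these genes, their markers were higher in the same libraries, and their part in the result was not tested.

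The windows before the RefSeq start sites of Gzmb (chr14:56262335-56262584, minus strand) and Gzmc (chr14:56234658-56234907, minus strand) are shown because both genes of this cluster on chromosome 14 rose together, with capitals for the same 3 motifs.
Gzmb: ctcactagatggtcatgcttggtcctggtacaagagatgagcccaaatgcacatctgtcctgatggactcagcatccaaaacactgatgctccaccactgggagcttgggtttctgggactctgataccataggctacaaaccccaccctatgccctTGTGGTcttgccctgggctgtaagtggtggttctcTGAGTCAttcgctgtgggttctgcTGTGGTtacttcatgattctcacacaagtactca
Gzmc: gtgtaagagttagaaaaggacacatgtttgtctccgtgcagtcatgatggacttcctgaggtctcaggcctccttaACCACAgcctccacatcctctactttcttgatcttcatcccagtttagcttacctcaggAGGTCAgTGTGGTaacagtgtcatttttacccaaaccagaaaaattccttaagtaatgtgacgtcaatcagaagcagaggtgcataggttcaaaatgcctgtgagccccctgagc
The Gzmb window held 2 RUNX matches, 93 and 34 bases before the start site, 1 AP-1 match at 58 and no half-site. The Gzmc window held 2 RUNX matches, at 174 and 108, 1 half-site at 115 and no AP-1 match.

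Coinhibitory genes were mixed. Of 16 receptors and regulators, 7 rose and 5 fell (43.8% and 31.2%), with a median of 1.06, and 8 rose and 4 fell with Dohh-/- 1 alone. Pdcd1 (PD-1) held 378, 245 and 245 CPM in the libraries labelled Dohh-/- and 57.6, 59.9 and 46.2 CPM in WT and rose by 2.41 ± 0.29 (adjusted p = 1.69e-06). Cd160 held 142, 112 and 93.8 CPM in the libraries labelled Dohh-/- and 2.34, 2.63 and 1.16 CPM in WT and rose by 5.79 ± 0.38 (adjusted p = 4.63e-10). Havcr2 (TIM-3) rose by 5.72 ± 0.58 (adjusted p = 2.05e-07) and, of members chosen after their values were seen, Lag3 rose by 1.78 ± 0.32 and Prdm1, the repressor Blimp-1, by 2.27 ± 0.29, while Btla fell by 2.41 ± 0.297 (adjusted p = 0.000136, 2.34e-06 and 1.83e-06). Tox, a factor of exhausted T cells, was not called at -0.72 ± 0.397 (adjusted p = 0.134).

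Cd4 fell, as did 4 other genes among the 10 coreceptor and signalling genes of T cells, whereas 1 of 7 genes of the receptor complex did. Of 17 T cell identity genes, 1 rose and 6 fell (5.88% and 35.3%), with a median of -0.404, or -0.74 without Dohh-/- 1, and 2 rose and 6 fell with Dohh-/- 1 alone. Cd4 (chr6:124864692-124888221, GRCm38, minus strand) held 79.7, 63.9 and 40.2 CPM in the libraries labelled Dohh-/- and 826, 825 and 790.2 CPM in WT and fell by 3.73 ± 0.25 (adjusted p = 6.66e-10). Every library labelled Dohh-/- lay far below every WT library. Cd3e, part of the receptor complex in all T cells, held 289, 202 and 98.1 CPM in the libraries labelled Dohh-/- and 239.9, 214 and 237 CPM in WT and overlapped (-0.23 ± 0.304, adjusted p = 0.542), and Thy1 rose by 1.37 ± 0.19 (adjusted p = 7.31e-06). Chosen after their values were seen, Trac, the constant region of the alpha chain, fell by 1.99 ± 0.25 and Cd5, a brake on receptor signalling, by 3.44 ± 0.29, and Cd28, the costimulatory receptor, by 2.79 ± 0.46 (adjusted p = 1.94e-06, 1.58e-08 and 6.21e-05). Trbc1 and Trbc2, the beta chain constant regions, also chosen so, were not called, at -0.18 ± 0.23 and -0.19 ± 0.204.

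Markers of gamma-delta T cells were higher. They rose in 9 of 10 genes, in 8 with Dohh-/- 1 as the only library of its group, and summed to 1230, 1170 and 959 CPM in the libraries labelled Dohh-/- against 74.4, 53.95 and 48.4 CPM in WT. Among all genes tested, 17.3% rose. Trdc (chr14:54142851-54148868, GRCm38, plus strand), the delta chain constant region, held 576, 555 and 428 CPM in the libraries labelled Dohh-/- and 32.9, 26.2 and 21.6 CPM in WT and rose by 4.27 ± 0.305 (adjusted p = 1.39e-09). Unlike the myeloid markers, Trdc was at a like level in all 3 libraries labelled Dohh-/-. Cd163l1, a scavenger receptor of gamma-delta T cells, rose by 6.22 ± 0.67 (adjusted p = 8.34e-07). Variable segments, summed per locus after the values of these markers were seen and without a test, showed the receptor chains apart. Tcra segments summed to 19.2, 11.7 and 2.72 CPM against 92.02, 93.1 and 97.5 CPM in WT, and Tcrb segments to 99.9, 87.2 and 25.5 CPM against 395, 444 and 431 CPM. Tcrg segments summed to 116, 111 and 7.86 CPM against 10.6, 5.95 and 6.24 CPM, and Tcrd segments to 59.96, 51.6 and 3.48 CPM against 7.43, 7.12 and 6.01 CPM. Dohh-/- 3 thus had the lowest sums of Tcra, Tcrb and Tcrd segments of all 6 libraries and a Tcrg sum within the range of WT, although its Trdc level was far above WT.

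CD8 T and NK markers rose in 9 of the 10 genes tested, in 7 with Dohh-/- 1 as the only library of its group, and summed to 971, 1251 and 964 CPM against 122, 155 and 138 CPM in WT. The share of all genes tested that rose was 17.3%. Cd8a held 76.1, 129 and 137 CPM in the libraries labelled Dohh-/- and 7.99, 4.58 and 6.24 CPM in WT and rose by 4.17 ± 0.46 (adjusted p = 6.93e-07), whereas Cd8b1, its partner in conventional CD8 T cells, which was chosen after its values were seen, held 11.6, 12.8 and 14.4 CPM in the libraries labelled Dohh-/- and 16.95, 18.2 and 19.98 CPM in WT and was not called (-0.51 ± 0.22, adjusted p = 0.0562). The NK marker Klrb1c was called from levels of at most 0.756 CPM. The call of Klrb1c, whose fold is only bounded because it was at the floor in WT, was lost without the library labelled Dohh-/- 3 (adjusted p = 0.0525), without library WT 1 (adjusted p = 0.0693), without library WT 2 (adjusted p = 0.0595) and without library WT 3 (adjusted p = 0.0552). Ncr1, which defines NK cells, had at most 3 counts in any of the 6 libraries and was not tested.

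Most naive T cell genes fell. Of 14 naive and memory genes, 0 rose and 10 fell (71.4% against 14.1% of all genes), with a median of -1.69, and 7 of 8 naive genes were among them, and 0 of the 14 rose and 7 fell with Dohh-/- 1 alone. Cd44, which rises on activated T cells, was above WT in each library labelled Dohh-/- but short of the fold threshold, at 0.86 ± 0.14 (adjusted p = 2.98e-05). Further members, chosen after their values were seen, were the receptor Ccr7 and the factors Tcf7 and Lef1, which fell by 2.36 ± 0.27, 2.61 ± 0.63 and 2.11 ± 0.302 (adjusted p = 6.39e-07, 0.00209 and 1.04e-05).

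Activation factors were mixed, with 4 of 18 higher and 3 lower (22.2% and 16.7%, near the shares of all genes) and a median of 0.18, which was -0.11 without Dohh-/- 1 and 0.101 without WT 2, and 3 rose and 1 fell with Dohh-/- 1 alone. Batf3, an AP-1 factor of TH1 and dendritic cells, rose by 2.98 ± 0.44 (adjusted p = 2.16e-05). Fosl2, an AP-1 factor of TH17 cells, held 66.04, 46.4 and 38.98 CPM in the libraries labelled Dohh-/- and 478, 415 and 490.3 CPM in WT and fell by 3.19 ± 0.304 (adjusted p = 7.24e-08). Fos rose by 1.28 ± 0.43 (adjusted p = 0.017) with overlapping groups, and Nfatc1 was not called at -0.33 ± 0.24. The call of Fos was lost when 1 library was left out, at 1.05 without the library labelled Dohh-/- 2 (adjusted p = 0.0705), 1.12 without the library labelled Dohh-/- 3 (adjusted p = 0.053) and 1.08 without library WT 1 (adjusted p = 0.0794).

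Of 20 genes of polyamine metabolism and hypusine synthesis, the pathway of DOHH, 4 rose and 1 fell (20% and 5%), with a median of 0.42, and 3 rose and 1 fell with Dohh-/- 1 alone. Among all genes tested 17.3% rose and 14.1% fell, so the share of this list that rose was near that of all genes. Eif5a, the substrate of the pathway, held 1399, 1225 and 1562 CPM in the libraries labelled Dohh-/- and 594, 659.6 and 628 CPM in WT and rose by 1.15 ± 0.24 (adjusted p = 0.000486). Dhps, the enzyme before DOHH, held 42.7, 35.8 and 51.8 CPM in the libraries labelled Dohh-/- and 34.4, 35.7 and 34.3 CPM in WT and was not called (0.32 ± 0.21, adjusted p = 0.207). Odc1, which makes putrescine, overlapped and was not called (-0.39 ± 0.201, adjusted p = 0.11), and Srm, the spermidine synthase, rose by 1.08 ± 0.32 (adjusted p = 0.00841). Short of the fold threshold but with no overlap were Sms, the spermine synthase, at 0.69 ± 0.14, Amd1, at 0.82 ± 0.21, Azin1, an inhibitor of ODC antizyme, at 0.98 ± 0.18, and Eif5a2, at 0.82 ± 0.23 (adjusted p = 0.000461, 0.00319, 0.000172 and 0.00599). Azin1 passed both thresholds when 1 library was left out, at 1.16 without the library labelled Dohh-/- 3 (adjusted p = 4.62e-05). Smox, which oxidises spermine, held 133, 80.8 and 54.4 CPM in the libraries labelled Dohh-/- and 413, 391 and 357 CPM in WT and fell by 2.11 ± 0.27 (adjusted p = 3.16e-06). Sat1, the acetyltransferase of polyamine breakdown, was not called at -0.396 ± 0.21.

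Of 25 translation factors 2 rose and 3 fell (8% and 12%), with a median of 0.25, and 5 fell without Dohh-/- 1, and 3 rose and 0 fell with Dohh-/- 1 alone. The shares of all genes tested were 17.3% and 14.1%, so the share of these factors that fell was near that of all genes. Eef2k, a kinase that inhibits elongation, rose by 1.097 ± 0.18 and Eif4ebp2, an inhibitor of initiation, fell by 1.702 ± 0.38 (adjusted p = 3.9e-05 and 0.000883). Eef1a1 was at -0.84 ± 0.26 and Eif2s1 at 0.74 ± 0.17, neither of them called. Eef1a1 passed both thresholds when 1 library was left out, at -1.09 without the library labelled Dohh-/- 1 (adjusted p = 0.00294). Of 20 aminoacyl-tRNA synthetases 1 rose, Tars, by 1.06 ± 0.19 (adjusted p = 0.000138), with a median of 0.41 for the list, and 5 rose with Dohh-/- 1 alone. The call of Tars was lost when 1 library was left out, at 0.97 without the library labelled Dohh-/- 3 (adjusted p = 0.00102).

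Most chaperones of the endoplasmic reticulum (ER) rose. Of 14 tested 9 rose and 0 fell (64.3%), and of 5 ER stress sensors 0 rose and 1 fell. Hspa5, the chaperone BiP, held 618, 756 and 521 CPM in the libraries labelled Dohh-/- and 202, 194 and 168 CPM in WT and rose by 1.75 ± 0.17 (adjusted p = 7.31e-08). Sdf2l1, a cofactor of BiP, held 123, 112 and 66.3 CPM in the libraries labelled Dohh-/- and 16.1, 18.2 and 13.98 CPM in WT and rose by 2.64 ± 0.403 (adjusted p = 2.48e-05). In both genes the groups did not overlap, and 10 chaperones were called with Dohh-/- 1 as the only library of its group. Eif2ak3, the ER stress kinase PERK, fell by 1.03 ± 0.31 (adjusted p = 0.00809), and Xbp1 was not called at -0.59 ± 0.15. The call of Eif2ak3 was lost when 1 library was left out, at -0.81 without the library labelled Dohh-/- 3 (adjusted p = 0.0505) and -0.997 without library WT 3 (adjusted p = 0.0239). The integrated stress response, in which phosphorylated eIF2 raises ATF4, had 8 of 22 genes higher and 3 lower (36.4% and 13.6%), with a median of 0.76, and 5 were higher without Dohh-/- 1, and 8 rose and 2 fell with Dohh-/- 1 alone. Atf4 was not called at 0.51 ± 0.18 (adjusted p = 0.0213), Asns, the asparagine synthetase, rose by 1.26 ± 0.31 (adjusted p = 0.00202), and Slc7a11, a cystine transporter, rose by 5.36 ± 0.97 (adjusted p = 0.000175) with 7.61, 43.1 and 90.5 CPM in the libraries labelled Dohh-/- and 1.13, 0.585 and 1.73 CPM in WT, in the order of the myeloid and mast cell counts. The call of Asns was lost when 1 library was left out, at 0.93 without the library labelled Dohh-/- 1 (adjusted p = 0.0188). Vldlr fell by 1.66 ± 0.33 (adjusted p = 0.000346).

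**Figure D4:**
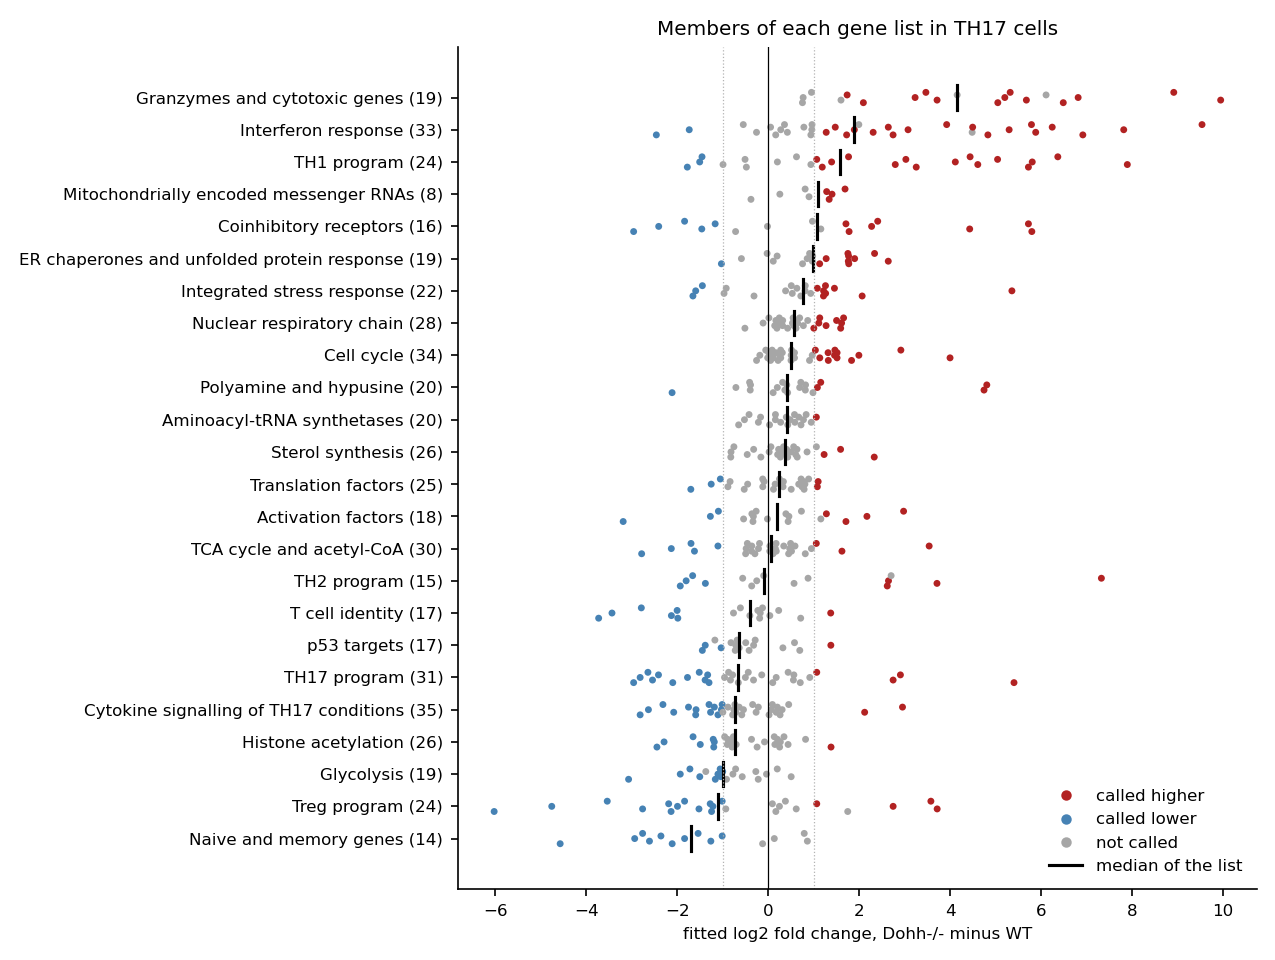
Fitted log2 fold change of each tested member (horizontal axis) of 24 gene lists, with the number of members tested in parentheses; red points were called higher, blue points lower and grey points neither, black bars are list medians and dotted lines mark a 2-fold change. Among these 24 lists, which leave out the cell type markers, granzymes and cytotoxic genes had the highest median, 4.15, and naive and memory genes the lowest, -1.69.

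Some glycolytic genes fell, and 0 genes of the respiratory chain did. Of 19 glycolysis genes, 0 rose and 9 fell (47.4% against 14.1%), with a median of -1.001, and 4 fell without Dohh-/- 3 and 3 with Dohh-/- 1 as the only library of its group, where the median was -0.54. Slc2a1, the glucose transporter GLUT1, held 163, 119.8 and 107 CPM in the libraries labelled Dohh-/- and 442, 435 and 614 CPM in WT and fell by 1.93 ± 0.28 (adjusted p = 1.03e-05). Slc2a3, the transporter GLUT3, held 76.4, 56.7 and 51.4 CPM in the libraries labelled Dohh-/- and 536, 399 and 616 CPM in WT and fell by 3.07 ± 0.47 (adjusted p = 2.98e-05). Hk2, the hexokinase, was chosen after its values were seen and fell by 1.06 ± 0.18 (adjusted p = 6.41e-05). The call of Hk2 was lost when 1 library was left out, at -0.84 without the library labelled Dohh-/- 3 (adjusted p = 0.000487) and -0.94 without library WT 3 (adjusted p = 0.000741). Of 28 nuclear genes of the respiratory chain 8 rose and 0 fell (28.6%), with a median of 0.57, among them Ndufa1 of complex I, by 1.66 ± 0.22 (adjusted p = 3.72e-06), while Uqcrc1 of complex III was at 0.19 ± 0.23, and 5 of the 28 rose with Dohh-/- 1 alone. Of 8 mitochondrially encoded messenger RNAs 4 rose, all of complex I, but 1 without Dohh-/- 3 and 0 with Dohh-/- 1 as the only library of its group, and mt-Nd1 held 955, 1556 and 2071 CPM in the libraries labelled Dohh-/- and 559, 756 and 566 CPM in WT (1.28 ± 0.24, adjusted p = 0.000194). mt-Nd6 rose by 1.69 ± 0.47 (adjusted p = 0.00524) and mt-Cytb was not called at 0.81 ± 0.25. The call of mt-Nd6 was lost when 1 library was left out, at 1.09 without the library labelled Dohh-/- 3 (adjusted p = 0.0562). mt-Cytb passed both thresholds when 1 library was left out, at 1.06 without the library labelled Dohh-/- 1 (adjusted p = 0.00104). Messenger RNAs of 5 further mitochondrial genes, among them mt-Co2 and mt-Atp6, had at most 3 counts in any library and were not tested.

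Of 30 genes of the TCA cycle and of acetyl-CoA 3 rose and 5 fell (10% and 16.7%, against 17.3% and 14.1% of all genes), with a median of 0.071, and 3 rose and 4 fell with Dohh-/- 1 alone. With 1 library left out, the median of this list ran from 0.002 (without WT 3) to 0.172 (without Dohh-/- 3). Pcx, the pyruvate carboxylase, held 14.8, 12.6 and 5.89 CPM in the libraries labelled Dohh-/- and 76.9, 82.8 and 73.2 CPM in WT and fell by 2.78 ± 0.30 (adjusted p = 3.65e-07). Me1, the cytosolic malic enzyme, rose by 3.54 ± 0.55 (adjusted p = 2.75e-05), Me2, its mitochondrial relative, which was chosen after its values were seen, fell by 1.698 ± 0.17 (adjusted p = 1.56e-07), and Cs and Pdha1 were not called, at 0.16 ± 0.15 and -0.19 ± 0.12. Of 26 histone acetylation genes 1 rose and 7 fell (3.85% and 26.9%), with a median of -0.74, and with Dohh-/- 1 alone the counts were 1 and 6. Ep300, the acetyltransferase p300, held 45.6, 52.5 and 37.8 CPM in the libraries labelled Dohh-/- and 114, 101 and 100.5 CPM in WT and fell by 1.21 ± 0.25 (adjusted p = 0.000416), Hdac11 fell by 2.45 ± 0.498 (adjusted p = 4e-04), Hat1, which acetylates new histone H4, rose by 1.38 ± 0.23 (adjusted p = 4.85e-05) and Hdac1 was not called at 0.13 ± 0.13. Of 26 sterol synthesis genes 3 rose and 0 fell (11.5% against 17.3% of all genes higher), 2 rose without WT 1 or without WT 2, and 2 fell without Dohh-/- 2 and 1 without Dohh-/- 1, with a median of 0.36, and with Dohh-/- 1 alone the counts were 3 and 1. Hmgcs1, an early enzyme, rose by 1.23 ± 0.29 (adjusted p = 0.00138) and Srebf1 was not called at -0.32 ± 0.199.

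Of the genes of the G1 and S phases 11 of 19 rose and 0 fell (57.9% against 17.3% of all genes higher), with a median of 1.13, against 1 of 15 for G2 and M, with a median of 0.25, or 0.38 without Dohh-/- 3. With Dohh-/- 1 alone, 13 of the 19 and 1 of the 15 rose. Ccnd1, which encodes cyclin D1, held 9.74, 9.24 and 16.9 CPM in the libraries labelled Dohh-/- and 0.726, 0.7805 and 0.693 CPM in WT and rose by 3.996 ± 0.66 (adjusted p = 4.71e-05). Ccna2 was not called at 0.58 ± 0.18. Among members chosen after their values were seen, Tyms, the thymidylate synthase, and Rrm2, a subunit of ribonucleotide reductase, rose by 2.92 ± 0.32 and 1.99 ± 0.27 (adjusted p = 4.96e-07 and 5.33e-06), with Tyms at 74.5, 75.9 and 89.4 CPM in the libraries labelled Dohh-/- and 10.6, 11.2 and 9.93 CPM in WT. The 3 libraries of each genotype lay close together for Tyms, also Dohh-/- 1. Of 17 p53 targets 1 rose and 3 fell (5.88% and 17.6%, against 17.3% and 14.1% of all genes), with a median of -0.64, and with Dohh-/- 1 alone the counts were 2 and 1. Cdkn1a, the cell cycle inhibitor p21, held 104, 76.9 and 111 CPM in the libraries labelled Dohh-/- and 239, 262 and 293 CPM in WT and fell by 1.45 ± 0.17 (adjusted p = 9.65e-07), and Pmaip1, which promotes cell death, rose by 1.38 ± 0.198 (adjusted p = 1.12e-05).

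More interferon response genes rose than fell. Of 33 tested, 18 rose and 2 fell (54.5% and 6.06%), the median was 1.89, 1.23 without Dohh-/- 3, or 1.72 with the 8 genes at the floor in WT set to their bounds, and 15 rose with Dohh-/- 1 as the only library of its group. Isg15, a ubiquitin-like protein, held 4.97, 6.19 and 12.99 CPM in the libraries labelled Dohh-/- and 0.404, 0.7805 and 0.346 CPM in WT and rose by 3.92 ± 0.52 (adjusted p = 4.73e-06). The chemokine gene Cxcl9, which IFN-gamma induces in macrophages, had no counts in WT and was at least 32-fold higher (adjusted p = 0.00315), with 2.03, 11.6 and 14.5 CPM in the libraries labelled Dohh-/-. Irf1 was above WT in all 3 libraries labelled Dohh-/- but short of the fold threshold, at 0.94 ± 0.16 (adjusted p = 8.25e-05). Irf1 passed both thresholds when 1 library was left out, at 1.03 without the library labelled Dohh-/- 3 (adjusted p = 7.99e-05). Gbp2, a guanylate-binding protein that IFN-gamma induces, held 204, 168 and 47.3 CPM in the libraries labelled Dohh-/- and 739, 896 and 681 CPM in WT and fell by 2.46 ± 0.401 (adjusted p = 5.02e-05).

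Signatures of the 4 subsets were taken from 16 WT libraries of the Odc part of the series, which are other samples than these, as up to 100 genes that were at least 2-fold higher in 1 subset than in each of the other 3. Genes of the TH1, TH2 and Treg signatures were thus chosen as lower in WT TH17 cells and had more room to rise. Those of the TH17 signature had more room to fall, so the choice itself favours these directions. Of the 91 TH17 signature genes tested here, 16 rose and 37 fell (17.6% and 40.7%), with a median of -0.58. The TH1 signature had 43 of 97 higher and 14 lower (44.3% and 14.4%), with a median of 1.78, or 1.43 with 26 genes at the floor set to their bounds. The TH2 signature had 31 of 91 higher and 8 lower (34.1% and 8.79%), with a median of 0.84, 0.501 without Dohh-/- 3, 0.49 with at most 50 genes in the signature, or 0.56 with bounds. The Treg signature had 37 of 95 higher and 17 lower (38.9% and 17.9%), with a median of 0.88, 0.088 with at most 50 genes, or 0.54 with bounds, and of 0.00 with Dohh-/- 1 as the only library of its group. With Dohh-/- 1 alone, the higher and lower counts were 9 and 24 for the TH17 signature, 32 and 11 for TH1, 16 and 6 for TH2 and 17 and 16 for Treg. Serpinb1a, a protease inhibitor gene of the TH17 signature, fell by 2.105 ± 0.43 (adjusted p = 0.000445). Maf is also a signature gene and fell, while Il17a rose.

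Whether the effect differed in TH17 cells was tested as the TH17 effect minus the mean of the effects in TH1, TH2 and Treg cells. The difference was called higher for 330 genes (2.37%) and lower for 255 (1.83%). Of the 330, 187 rose in TH17 cells, 22 fell and 121 were not called there, and of the 255, 164 fell, 8 rose and 83 were not called. The counts of higher and lower differences were 526 and 375 without Dohh-/- 1, 249 and 155 without Dohh-/- 3, 189 and 173 without WT 2, 195 and 192 without WT 3, 535 and 309 without the library labelled Dohh-/- 3 of TH1 cells, and 96 and 50 with Dohh-/- 1 as the only library of its group. Of the 2411 genes that rose in TH17 cells, 294 were called neither higher nor lower in any of the other 3 subsets. Of these 294, 47 also passed the test of the difference. Of the 1955 that fell, 367 were called in neither direction in any of the others, and 58 of these passed it.

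Penk, the precursor of enkephalin peptides, held 202, 148 and 310 CPM in the libraries labelled Dohh-/- and 1.94, 1.07 and 1.04 CPM in WT and rose by 7.296 ± 0.65 (adjusted p = 6.29e-08), 5.73 more than the mean of the other subsets (adjusted p = 4.2e-05). Lad1, an anchoring filament protein, held 14.5, 12.05 and 13.1 CPM in the libraries labelled Dohh-/- and 2.74, 2.15 and 2.66 CPM in WT and rose by 2.39 ± 0.35, 4.32 above the others (adjusted p = 4.46e-06). The libraries labelled Dohh-/- lay close together for Lad1, whereas Gm5483, Mapk13, Myl10, 2010005H15Rik, Asic3, Cd83, Nrgn and the complement gene C3, the other 8 of the 10 largest differences upward among genes that averaged at least 10 CPM, were highest in Dohh-/- 3. With each of the 24 libraries left out in turn (ranges over these omissions in parentheses), the call of the difference was lost for Gm5483 in 6 omissions (5.05 to 7.57), 2010005H15Rik in 2 omissions (2.98 to 5.54), C3 in 4 omissions (3.81 to 4.91) and Nrgn in 7 omissions (3.47 to 4.72), and the other 6 of the 10 kept it. The effect of 2010005H15Rik in TH17 cells itself, 4.71, stood at 2.74 without the library labelled Dohh-/- 3 (adjusted p = 0.00938). The call of the effect in TH17 cells itself, 2.05 ± 0.57 for Cd83, was lost at 1.26 without the library labelled Dohh-/- 3 (adjusted p = 0.0549). With Dohh-/- 1 as the only library of its group, the effect of C3, 4.07 in the main fit, stood at 0.79, and that of Mapk13, 5.315, at 1.33. In that fit Cd83 was at 1.09, 2010005H15Rik at 2.59, Myl10 at 3.49, Asic3 at 3.88, Gm5483 at 6.02 and Nrgn at 7.03.

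Downward, Selp, the adhesion receptor P-selectin, held 1.72, 1.29 and 2.42 CPM in the libraries labelled Dohh-/- and 41.9, 57.3 and 39.04 CPM in WT and fell by 4.71 ± 0.49 (adjusted p = 2.44e-07), -3.97 relative to the others (adjusted p = 0.000216). Serpinb1a held 21.8, 61.3 and 87.8 CPM in the libraries labelled Dohh-/- and 203, 286 and 244 CPM in WT, with a difference of -3.87 (adjusted p = 0.000152), and Ltb4r1, the leukotriene B4 receptor, held 36.7, 37.8 and 26.9 CPM in the libraries labelled Dohh-/- and 71.4, 77.7 and 55.4 CPM in WT, with a difference of -3.62 (adjusted p = 1.82e-05). All 3 genes lay lower in every library labelled Dohh-/- than in any WT library. The other 7 of the 10 were Ly6g, Gja5, Gipr, Ppp1r14c, Gm16350, Dntt and 2900011O08Rik. The call of the difference was lost for Gipr in 14 omissions (-4.42 to -3.48) and Dntt in 12 omissions (-4.18 to -2.95), and the other 8 kept it under each omission. The call of the effect in TH17 cells itself, -1.41 ± 0.46 for Gja5, was lost at -1.07 without the library labelled Dohh-/- 1 (adjusted p = 0.0672), -1.06 without the library labelled Dohh-/- 2 (adjusted p = 0.0707) and -1.25 without library WT 2 (adjusted p = 0.0544). The effect of Gja5 in TH17 cells itself stood at -2.44 without the library labelled Dohh-/- 3 (adjusted p = 5.81e-05). The call of the effect in TH17 cells itself, -1.01 ± 0.33 for Ltb4r1, was lost at -0.85 without the library labelled Dohh-/- 3 (adjusted p = 0.0625), -0.97 without library WT 1 (adjusted p = 0.038) and -0.904 without library WT 2 (adjusted p = 0.0497). The call of the effect in TH17 cells itself, -1.69 ± 0.58 for Ppp1r14c, was lost at -1.403 without the library labelled Dohh-/- 3 (adjusted p = 0.0716) and -1.58 without library WT 1 (adjusted p = 0.058).

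Within the lists, the difference from the other subsets was called lower for 9 of 31 TH17 program genes and higher for 2, Il6ra and Itgae. Among all genes tested it was called lower for 1.83% and higher for 2.37%. Il17f differed by -2.06 (adjusted p = 0.0256), Il21 by -2.14 (adjusted p = 0.0357), Il10 by -2.93 (adjusted p = 5.5e-05) and Maf by -1.31 (adjusted p = 0.0474). Il10 kept its call under each of the 24 omissions, whereas the call was lost for Il17f in 5 omissions (-2.36 to -1.61), Il21 in 10 omissions (-2.86 to -1.65) and Maf in 17 omissions (-1.49 to -0.99). Il17f was at 0.64 in TH1, 1.61 in TH2 and 4.24 in Treg cells, beside its value near 0 in TH17 cells. Il17a was not called, at -1.98 (adjusted p = 0.0624). Of the 19 glycolysis genes 5 were lower in TH17 cells than in the others and 0 higher, against 1.83% and 2.37% of all genes. Among the 5 were Slc2a1, at -1.57, and Hk2, at -1.55 (adjusted p = 0.0035 and 0.000121). In the TH17 signature, 26 of 91 genes were called lower and 0 higher, against 1.83% and 2.37% of all genes. Signature genes were chosen as higher in WT TH17 cells than in the other subsets, so they had more room to fall there. The choice itself favours a lower difference, and no conclusion is drawn from this count. Tbx21 rose more in TH17 cells than in the others, by 1.61 (adjusted p = 0.0237), a call that was lost without Dohh-/- 1, WT 2 or WT 3 of TH17 cells (1.20 to 1.57), and Ifng did not differ at the threshold, at 0.601 (adjusted p = 0.597).

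**Figure D5:**
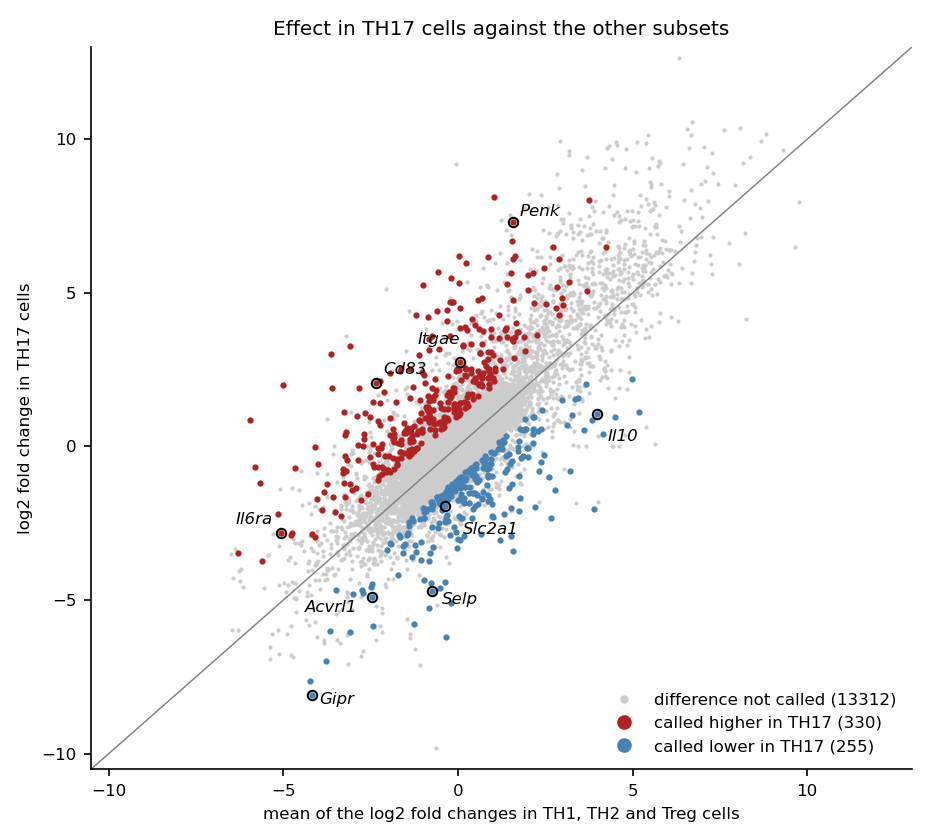
Fitted log2 fold change in TH17 cells (vertical axis) against the mean of those in TH1, TH2 and Treg cells (horizontal axis) for the 13897 genes tested; the line marks equal effects. Red points are the 330 genes whose effect was called higher in TH17 cells, blue points the 255 called lower, and 9 genes named in the text are circled.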

How the data were processed

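The authors deposited a table of raw read counts per gene for the Dohh libraries, made from TruSeq stranded mRNA libraries. Their processing notes name STAR, featureCounts, DESeq2, deepTools and the mm10 build, with versions not given in the sources used here. Of 47937 gene IDs, 47224 matched a name, and the rest held 0.064% of the TH17 counts. Genes that T cells use, such as Il2rg and Cox4i1, are listed at 0 in these counts.

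All 24 Dohh libraries (4 subsets, 2 genotypes, 3 libraries each) were fitted together with edgeR 4.0.16 (filterByExpr, TMM, robust quasi-likelihood test, Benjamini-Hochberg adjustment over 13897 genes) and limma 3.58.1 in R 4.3.3. CPM used the TMM effective library size. The contrasts were TH17 Dohh-/- minus WT, and that effect minus the mean effect of the other subsets. The method was also run on simulated data, drawn from WT means with the dispersions of this fit. Far fewer genes differed there than in these data. A fold against a group with at most 3 counts in every library is a bound against 3 counts per library. Signatures came from 16 WT libraries of the Odc table at a 2-fold change over each other subset, up to 100 genes, and 15 further per-sample columns of that table were not used.

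Genes named were, per list, the largest called rise and fall and the first member of each role, all members of the lineage programs, granzymes, polyamine and hypusine genes, the 15 largest rises and falls and the 10 largest differences each way, and others are said to be chosen after their values were seen. Some genes that this rule names are not reported here. The lists and rules were chosen with earlier results of these data known. Replicate numbers were checked for pairing: deviations of same-numbered Dohh-/- and WT libraries in TH17 cells correlated at r of -0.02, -0.016 and -0.022. These values showed no pairing of the genotypes but, with 3 libraries each, cannot exclude it, and the labels do not state it. Promoter windows and motifs were read from RefSeq sequences of GRCm38.p6 (27025 genes). Alternatives were DESeq2 1.42.0, RLE scaling, other filters and thresholds, fewer libraries and a replicate block.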

Additional observations from a re-analysis of the deposited data

Results flagged for a closer look

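For 55 genes named here, the effect of the Dohh-/- label in TH17 cells differed from the mean of its effects in TH1, TH2 and Treg cells, by edgeR's quasi-likelihood test of the difference itself (log2 difference beyond 1 in size, adjusted p below 0.05). The values that follow are these log2 differences, TH17 effect minus the mean of the others, and no cause of a difference was tested. With each of the 24 libraries left out in turn, 35 of the 55 kept their call. It was lost in at least 1 omission for Gm5483, 2010005H15Rik, C3, Nrgn, Tbx21, Nkg7, Ikzf2, Il23r, Il21, Il17f, Csf2, Tmem176a, Maf, Il2ra, Socs3, Gfpt2, Smox, Gipr, Dntt and 2610528A11Rik. A difference from the mean does not make an effect particular to TH17 cells, since another subset can change alike. By log2 fold change within each subset, Gfpt2 was at -4.80 in TH17, -3.82 in TH1, -0.303 in TH2 and -4.90 in Treg cells. Asic3 was at 4.51 in TH17, -1.78 in TH1, -1.57 in TH2 and 3.57 in Treg cells.

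Of the genes with the largest positive differences, among called genes that averaged at least 10 CPM in the TH17 genotype where they were higher, Gm5483 was at 7.06, Penk at 5.73, Mapk13 at 5.295, Myl10 at 5.12 and 2010005H15Rik at 4.94. In TH17 cells Myl10 was at the floor of 3 counts per library in WT and 2610528A11Rik in the libraries labelled Dohh-/-, so their fitted differences are not bounds. Asic3 was at 4.44, Cd83 at 4.39, C3 at 4.37, Lad1 at 4.32 and Nrgn at 4.27. Cd83 and Lad1 rose in TH17 cells and had negative log2 fold changes in each of the other subsets. In TH1, TH2 and Treg cells these were -1.55, -2.18 and -3.29 for Cd83 and -0.62, -0.26 and -4.93 for Lad1. Lad1 was called lower in Treg cells but not in TH1 or TH2 cells (edgeR, adjusted p = 0.21 and 0.54).

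Among cytotoxic and TH1 genes, Crtam was at 2.35, Tnfsf10 at 1.98, Nkg7 at 1.34, Cxcr3 at 2.06 and Tbx21 at 1.61. Other positive differences were Itgae at 2.69, Tox at 2.56, Ikzf2 at 1.94, Tgfbr1 at 1.83 and Gata3 at 1.59. In TH17 cells themselves Itgae and Ikzf2 rose, and Tox, Tgfbr1 and Gata3 were not called. Il6ra was at 2.26, since it fell less in TH17 cells than in the others (-2.82 against -6.195, -5.13 and -3.91).

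Among genes of the TH17 program, Il10 was at -2.93, Csf2 at -2.41, Il23r at -2.19, Il21 at -2.14 and Il17f at -2.06. Tmem176b was at -1.82, Il12rb1 at -1.54, Tmem176a at -1.38 and Maf at -1.31. In TH17 cells themselves Il21, Il12rb1 and Maf fell and Il10 was called higher. Csf2, Il23r, Il17f, Tmem176a and Tmem176b were not called there. Of signalling and regulatory genes, Il2ra was at -1.24, Socs3 at -1.002, Fosl2 at -1.67, Cdkn1a at -1.36 and Gbp2 at -2.096. Of Treg genes, Lrrc32 was at -2.05 and Gpr83 at -2.93. Of metabolic genes, Slc2a1 was at -1.57, Hk2 at -1.55, Me2 at -1.86, Gfpt2 at -1.79 and Smox at -1.19.

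Among called genes with the same minimum level, the largest negative differences were those of Ly6g at -4.43, Gja5 at -4.18, Selp at -3.97, Gipr at -3.905 and Serpinb1a at -3.87. Ltb4r1 was at -3.62, Ppp1r14c at -3.47, Gm16350 at -3.404, Dntt at -3.403 and 2900011O08Rik at -3.29. Other genes among the largest falls were 2610528A11Rik at -3.21, Acvrl1 at -2.41 and Gpld1 at -2.36.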

How the results depend on the processing

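The 4366 genes called in TH17 cells (2411 higher and 1955 lower) were 2698 with a mean count of at least 50, 2168 when the 2-fold change itself was tested, and 2853 with Dohh-/- 1 as the only library of its group, which was chosen after seeing the data. An adjusted p below 0.01 together with the 2-fold change gave 3647 genes, against these 4366 at 0.05 and 7225 at 0.05 without the fold threshold, and the 7225 were 4047 with Dohh-/- 1 alone. The 585 differences from the other subsets were 288 at 0.01 and 146 with Dohh-/- 1 alone. Leaving out each library in turn gave 3733 to 4531 called genes, 6107 to 6921 under an adjusted p alone, and 362 (without WT 2) to 901 (without Dohh-/- 1) differences. DESeq2, RLE scaling and no filter kept these 3 totals within 1.5 times, as a fit of only the 6 TH17 libraries did for the first 2. By direction, DESeq2 gave 525 higher and 311 lower differences, against 330 and 255 in the main fit. The median of all genes was 0.013 with TMM, 0.048 with RLE and 0.047 with DESeq2.

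With the replicate block, which pairs libraries that share only a number, the 6 TH17 libraries gave 3411 called genes (1807 higher and 1604 lower) against 3575 without it, and the block across subsets gave 683 differences (395 and 288). Across subsets, deviations of same-numbered libraries of a genotype correlated above 0.1 in 15 of 18 pairs (r -0.265 to 0.644), and in 14 of the 18 the TH17 library correlated best with its own number, a hint from the data and not from the labels.

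Signature medians with Dohh-/- 1 alone were 1.09 (TH1), 0.18 (TH2), -0.73 (TH17) and 0 (Treg), and with at most 50 genes 0.49 (TH2), -0.67 (TH17) and 0.088 (Treg). Leaving out each library gave 0.50 to 1.19 for TH2, -0.77 to -0.48 for TH17, 1.60 to 1.92 for TH1 and 0.74 to 1.22 for Treg.

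Some values near 0 changed sign. The median of the TH2 program was 0.23 with Dohh-/- 1 alone and -0.26 to 0.44 over single omissions, and that of activation factors -0.11 to 0.27. With Dohh-/- 1 alone, Cd3e was at 0.36, Ikzf3 at 0.055, Il1r1 at -0.046, Il23r at 0.094, Il4 at 0.049, Odc1 at 0.07, Srebf1 at 0.044 and Tgfbr1 at -0.83. Over single omissions, Cd3e ran from -0.62 to 0.105, Ikzf3 from -0.23 to 0.001, Il17f from -0.199 to 0.28, Il4 from -0.397 to 0.64 and Tgfbr1 from -0.092 to 0.54. The cause was not tested in any of these. With 6572148 counts, Dohh-/- 3 was the shallowest library, in which 3 counts correspond to 0.453 CPM, and smaller levels there rest on fewer counts.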
